A study of Saccharomyces cerevisiae with 10 samples.

Results

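The mRNAs of 58 genes for large ribosomal subunit proteins, RPL1A to RPL33B, were followed in budding yeast after transcription was shut off. They were picked by systematic name from the 6717 yeast genes of the table, and all 58 were present and matched to a RefSeq gene of assembly R64. They make up 33 protein families, of which 25 are encoded by a pair of paralogous genes, called A and B, and 8 by 1 gene. The 18 genes RPL34 to RPL43 and the acidic stalk proteins were not among them.

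The study asked how the Ccr4-Not complex, which removes the poly(A) tail of mRNAs, affects mRNA decay. The 10 libraries analysed here all come from an rpb1-1/caf1 mutant (strain yJC1257, Saccharomyces cerevisiae), taken at 0, 3, 6, 8 and 10 min and again at 15, 20, 30, 45 and 60 min after a shift out of mid-log growth at 24 °C to 37 °C. The rpb1-1 allele makes RNA polymerase II temperature-sensitive, and the shift to 37 °C is meant to stop new mRNA synthesis. How fully synthesis stopped was not tested here. Every library carries this allele together with the loss of CAF1 (listed as POP2, YNR052C, a deadenylase of the complex), so no library here has an intact complex. Each library after 0 min combines the block with the rise in temperature, and their effects on mRNA levels cannot be told apart. Each time point is 1 library, the 0 min aliquot was taken before the shift, and the rpb1-1 libraries with CAF1 were not analysed here. The growth protocol in the labels names the strain yJC244 while the strain label reads yJC1257. A duplicate culture is mentioned in the labels and was not used here. The labels also allow 2 library kits, one that selects poly(A) RNA and one for total RNA, without giving the kit of each library. POP2 was at 0.887 FPKM at 0 min, against a median of 39.7 FPKM over 5285 mRNAs. HIS3, which replaces CAF1 in this strain by the study's strain list, was listed at 0 in every library, so the values do not show that insertion and the libraries are called by their labels.

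Ribosomal proteins of the large subunit fold onto the 25S, 5.8S and 5S rRNAs in the nucleolus and nucleus, and the particle is finished in the cytoplasm. Budding yeast devotes a large part of its polymerase II transcription to ribosomal protein genes in fast growth and turns these genes up and down together. Most of these genes survive as duplicated copies whose proteins are nearly the same, and many carry an intron, which few other yeast genes do.

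Values are FPKM, fragments scaled to transcript length and to library size, divided by the summed FPKM of the added ERCC spike-in RNAs relative to 0 min. The spike-ins went into extracted RNA, so a scaled level is per amount of RNA, and fewer mRNAs per cell and less mRNA in the extracted RNA cannot be told apart. The spike-in factor lay between 1 at 0 min and 1.42 at 60 min. The libraries held an estimated 2260000 to 4912000 fragments. A member held a median of 888 fragments at 0 min by this estimate, and the lowest value was 3.41 fragments, for RPL7B at 30 min. RPL29, with a coding sequence of 180 bases, has few possible fragment positions, and its estimate of 30.5 fragments at 0 min is the least certain.

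Some libraries did not follow the order of their labels. The 45 min library was above the 30 min library in 57 of 58 members, RPL28 being the exception, with a median ratio of 1.80. Among 4664 expressed mRNAs the 45 min level was the higher in 74.9%, with a median ratio of 1.13. In FPKM as deposited, without the spike-ins, the count was again 57 and the median ratio 1.63. The 10 min library was above the 8 min library in 52 members and in 83.6% of expressed mRNAs. The labels were kept, and some of the results that rest on the 30 and 45 min libraries are also given without them.

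Because fragments from nearly equal copies may be divided between them, sequences of 3 pairs are shown first. They are the first 80 bases of the longest coding exon, read from R64 by systematic name, 5′ to 3′ on the coding strand, with capitals where A and B differ. RPL1, whose proteins form the L1 stalk at the tRNA exit, was the pair with the closest copies. RPL22 and RPL27 are shown because they were among the 3 pairs with the largest ratio of half-lives and have diverged along their whole length. The windows lie at chrXVI:135790-135869 (RPL1A, plus strand), chrVII:254641-254720 (RPL1B, plus strand), chrXII:263595-263674 (RPL22A, plus strand), chrVI:64520-64599 (RPL22B, minus strand), chrVIII:127113-127192 (RPL27A, plus strand) and chrIV:1402185-1402264 (RPL27B, plus strand). These are coordinates of R64, not of SacCer2, the build to which the reads were aligned.
RPL1A: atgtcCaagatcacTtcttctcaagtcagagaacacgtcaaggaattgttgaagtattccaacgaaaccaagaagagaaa
RPL1B: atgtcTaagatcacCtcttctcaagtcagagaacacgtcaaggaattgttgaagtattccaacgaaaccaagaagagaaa
RPL22A: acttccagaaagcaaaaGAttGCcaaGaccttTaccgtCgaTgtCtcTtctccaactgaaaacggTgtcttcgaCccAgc
RPL22B: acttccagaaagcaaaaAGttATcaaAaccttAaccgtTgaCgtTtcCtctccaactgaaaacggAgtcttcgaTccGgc
RPL27A: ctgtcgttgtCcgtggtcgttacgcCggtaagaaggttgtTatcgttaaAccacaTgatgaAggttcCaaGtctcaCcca
RPL27B: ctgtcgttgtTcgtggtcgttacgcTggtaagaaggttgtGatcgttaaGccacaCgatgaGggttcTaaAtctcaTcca
The RPL1 copies differ at 2 of these 80 bases, the RPL27 copies at 9 and the RPL22 copies at 13. Over the whole coding sequence the identity of A and B was 99.4% for RPL1, 89.8% for RPL27 and 78.9% for RPL22. RPL1 was the highest and RPL22 the lowest of the 25 pairs, and RPL27 lay near the low end. The share of 100-base stretches, the length of 1 read, in which A and B have 2 or fewer differences was 100% for RPL1 and 0% for both RPL27 and RPL22.

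Before the shift the members covered a wide range of levels. Their median at 0 min was 685 FPKM, with the middle 50% between 406 and 1083 FPKM, and together they made up 7.25% of the FPKM of all yeast genes. The highest was RPL10 (YLR075W), for a protein that is among the last to join the particle, next to the peptidyl transferase centre, at 3235 FPKM. RPL19B and RPL19A, for a long helical protein of the tunnel side and subunit bridges, followed at 2743 and 2562 FPKM. The lowest were RPL7B at 17.9, RPL15B at 41.6 and RPL7A at 42.6 FPKM. Of the 58 members, 16 reached 1000 FPKM and 7 stayed under 100.

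A ribosome holds 1 copy of each of these proteins, so levels were also summed over the copies of a family. The 33 sums had a median of 1584 FPKM, and 21 of them lay between 1000 and 3000. The 3 sums above 3000 were RPL19 at 5304, RPL10 at 3235 and RPL21 at 3221 FPKM. The 4 lowest sums belonged to pairs with near-identical copies. In 5 pairs at least 50% of the 100-base stretches had 2 or fewer differences, a limit set after the values were seen. They were RPL1 (100%), RPL4 (94.9%), RPL11 (81.5%), RPL7 (79.6%) and RPL14 (63.2%), and their sums were 103, 276, 835, 60.4 and 172 FPKM. The other 20 pairs had sums of 838 to 5304 FPKM with a median of 1602, so that the ranges of the 5 pairs and the 20 pairs nearly touched at RPL11 and RPL22 and did not overlap. The single-copy members lay between 387 FPKM (RPL29) and 3235 FPKM (RPL10). How the authors' aligner treated reads that match both copies is not given in the sources used here, and its part in the low values was not tested. The levels and half-lives of these 10 genes are therefore uncertain.

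**Figure D1:**
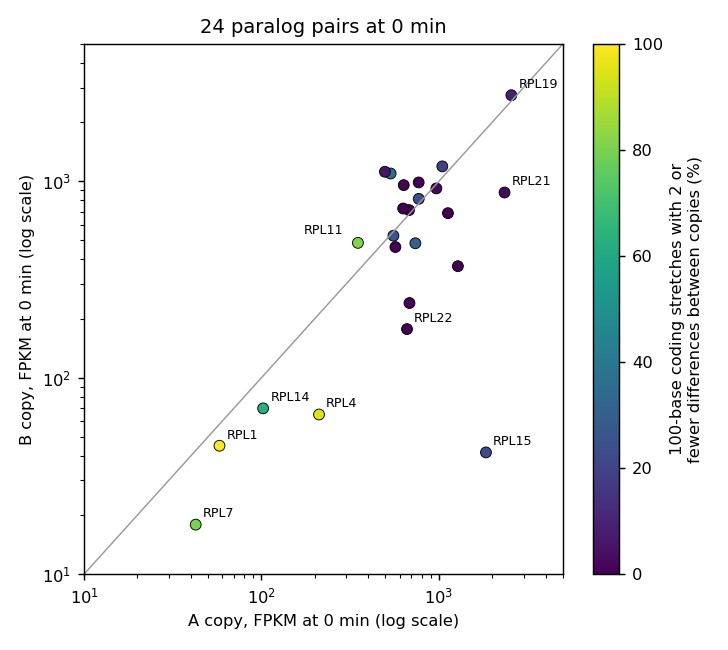
FPKM at 0 min of the A copy (x axis, log scale) and the B copy (y axis, log scale) of 24 of the 25 paralog pairs, coloured by the percent of 100-base coding stretches in which the copies have 2 or fewer differences. The line marks equal levels; RPL1, RPL4, RPL7 and RPL14 sit at the lower left, RPL11 below most other pairs, and RPL15 (1842 against 41.6 FPKM) lies farthest from the line.

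Within pairs the copies were often unequal. The A copy was the higher one in 15 of 25 pairs, and the copies were within 1.5 times of each other in 12. The most unequal pair was RPL15, for a protein bound to the 25S rRNA. RPL15A had 1842 FPKM and RPL15B 41.6 FPKM at 0 min. A share of 22.1% of its stretches was near-identical, and A was above B in all 10 libraries, with A/B ratios of 37.7 to 69.2.

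After the shift all 58 members declined, and their median level lay above that of all expressed mRNAs up to 20 min and below it from 30 min on. The member median was 93.8, 84.7, 73.3, 83.2, 59.7, 52.2, 18.6, 34.5 and 14.7% of the 0 min level in the 9 later libraries in order of time. The median of the 4664 expressed mRNAs was 82.3, 66.9, 56.6, 65.6, 49.0, 49.1, 39.0, 44.8 and 35.4% in the same libraries. The curves crossed between 20 and 30 min, a place that rests on the 30 min library. Without the 30 and 45 min libraries the crossing can be placed only between 20 and 60 min. At 10 min 52 of 58 members were above the median of all mRNAs, and 35 still were at 20 min. The 6 below it at 10 min were RPL7B, RPL22B, RPL4A, RPL4B, RPL9B and RPL27B. The number under it was 57 in the 30 min library, 51 in the 45 min library and 57 in the 60 min library. The members' share of the FPKM of all yeast genes does not depend on the spike-ins. It was 7.25% at the start, 6.67% after 10 min and 5.35% after 20 min. In the 30, 45 and 60 min libraries it was 2.63, 3.94 and 2.24%, so it too was higher at 45 than at 30 min. Every member was lower at 60 min than at 0 min, and the lowest level was at 60 min in 49 members and at 30 min in the other 9. Summed over copies, the families kept between 9.44% (RPL5) and 29.7% (RPL15) of the 0 min level at 60 min.

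**Figure D2:**
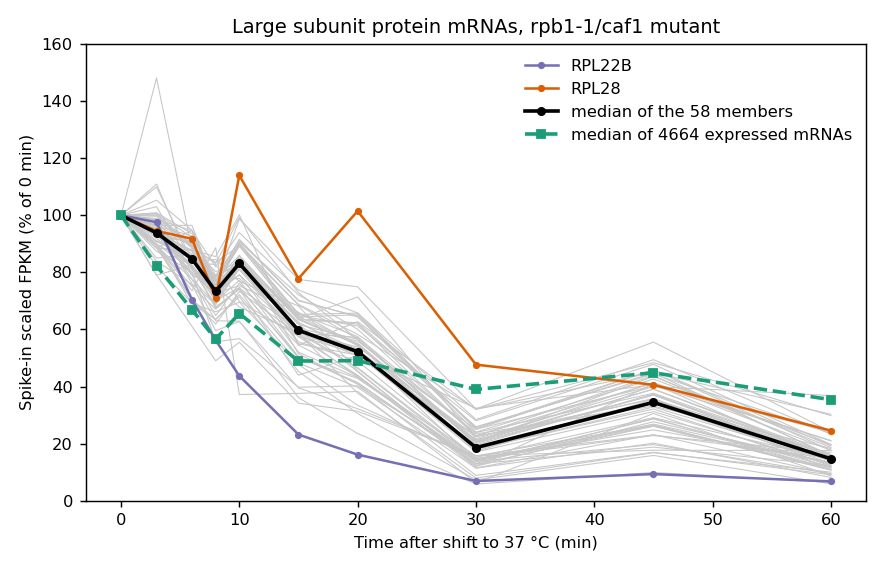
Spike-in scaled FPKM in percent of 0 min (y axis) against minutes after the shift to 37 °C (x axis), 1 library per time point. Grey lines are the 58 members with RPL28 and RPL22B in colour, the black line is their median and the dashed line the median of 4664 expressed mRNAs; the medians cross between 20 and 30 min and both are higher at 45 than at 30 min.

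The slope of log2(scaled FPKM + 1) over all 10 libraries was negative and passed limma's test (Benjamini-Hochberg adjusted p under 0.05 over 5176 mRNAs) in 58 of 58 members, against 57.7% of all mRNAs tested. The slopes ran from -0.74 ± 0.10 for RPL27B to -0.29 ± 0.05 log2 units per 10 min for RPL7A (SE, 10 libraries). The member median was -0.46, and the median of all mRNAs tested -0.17. The highest adjusted p of a member in this limma test was 0.0043, for RPL14B. Left without the 30 and 45 min libraries, an alternative added after the data were seen, the test again called 58 of 58, against 48.8% of all mRNAs.

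With a bend allowed at 10 min, the early part of the course was set apart from the rest. Over 0 to 10 min the slope was negative and passed in 7 of 58 members, against 59.4% of all mRNAs tested. The median early slope of the members was -0.63 log2 units per 10 min against -0.80 for all mRNAs, while their median SE was 0.39 against 0.26. The order of the median slopes turned round with the bend at 15 min (-0.65 for the members against -0.59 for all mRNAs), with a pseudocount of 10 (-0.61 against -0.57) and without the 0 min library (-0.74 against -0.69). The 7 members were RPL22B, RPL4A, RPL9B, RPL15B, RPL4B, RPL27B and RPL18B. RPL22A (-0.71 ± 0.31), RPL9A (-0.53 ± 0.39), RPL15A (-0.49 ± 0.30) and RPL27A (-0.52 ± 0.34), the A copies of 4 of them, did not pass. RPL22A was close to the limit (adjusted p = 0.060 in limma), and early slopes were not tested between copies. RPL22B had the steepest early slope at -2.03 ± 0.48 (adjusted p = 0.0042 in limma), and RPL4A had -1.33 ± 0.33 (adjusted p = 0.0047 in limma). RPL28 was the sole member with a positive early slope, 0.05 ± 0.28, which did not pass (adjusted p = 0.87 in limma). The count depended on single libraries, with 1 of 58 without the 0 min library (against 12.1% of all mRNAs), 4 without 3 min (against 49.9%) and 16 without 30 min (against 59.9%), and it was 22 without both the 30 and 45 min libraries (against 59.8% of all mRNAs). With the bend moved to 15 min it was 37, against 64.4% of all mRNAs.

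The change of slope at 10 min was positive, that is the decline slowed, and passed in 2 of 58 members, RPL4A (1.02) and RPL22B (1.51 log2 units per 10 min), against 42.8% of all mRNAs tested. The member median change was 0.18 log2 units per 10 min, against 0.69 for all mRNAs. After 10 min the members' median slope was -0.43 log2 units per 10 min and that of all mRNAs -0.09, and all 58 members lay below that median of all mRNAs. Without the 0, 3, 15, 20 or 60 min library 0 members passed for a changed slope in limma, with 1 or 2 at an unadjusted p under 0.05. The counts with libraries left out take a change in either direction, for which the share of all mRNAs was 45% with all libraries. That share was 1.06% without 0 min, 35.3% without 3 min, 33.2% without 15 min, 38% without 20 min and 35.9% without 60 min. Without 8 min 1 member passed (against 38.4%) and without 10 min 4 (against 59.6%). Without both the 30 and 45 min libraries 2 passed (against 44.7%). RPL4A and RPL4B are near-identical copies, and their separate values are uncertain.

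**Figure D3:**
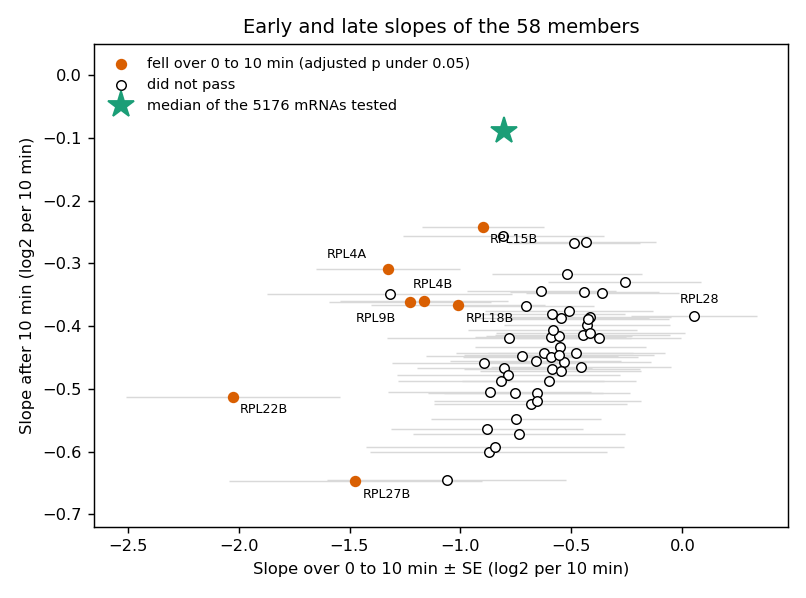
Slope of log2(scaled FPKM + 1) over 0 to 10 min ± SE (x axis) and after 10 min (y axis), both in log2 units per 10 min, for the 58 members. Filled points are the 7 that passed limma's test over 0 to 10 min and the star is the median of the 5176 mRNAs tested (-0.80 early and -0.09 late), above every member on the y axis.

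A half-life was fitted to each mRNA from its levels relative to 0 min. The study kept fits whose residuals averaged 0.14 or less in size and whose half-life did not exceed 60 min. All 58 members passed, as did 53.0% of 5285 mRNAs fitted. Their median half-life was 21.2 min, with the middle 50% between 17.0 and 25 min, and 53 of 58 lay within 10 min of the median. The median of all mRNAs that passed was 15.8 min, with the middle 50% between 9.22 and 27.3 min. This median leaves out every mRNA with a half-life over 60 min, so it does not stand for all mRNAs. Among all mRNAs tested the median slope over the course was -0.17 log2 units per 10 min, against -0.46 for the members. The shortest half-lives were those of RPL22B (9.11 ± 2.56 min), RPL4A (10.7 ± 3.18 min) and RPL27B (11.6 ± 2.89 min), and the longest those of RPL28 (40.5 ± 23.1 min), RPL31A (35.0 ± 13.9 min) and RPL10 (31.2 ± 10.6 min), each ± the SE of the fit. With a straight line through the logarithms RPL22B had 14.2 min, RPL27B 13.4 min and RPL4A 23.3 min, so the place of RPL4A among the shortest rests on the exponential fit. The same line gave 29.8 min for RPL28, 31.0 min for RPL31A and 28.6 min for RPL10. RPL7A had 33.6 min by this line, so the order of the longest half-lives rests on the exponential fit as well. The SE was 28.3% of the half-life at the median, so neighbours in this order do not differ beyond their error. The median was 19.6 to 23.8 min when 1 of the 9 later libraries was left out, 0 min being the base of every fit, and without the 30 and 45 min libraries it was 22.5 min. It was 29.2 min in FPKM as deposited and 35.8 min with all libraries set to the same total. By the spike-ins the summed yeast FPKM was 52.6% of its 0 min value at 60 min, a decline that the setting with the same total takes away by its construction.

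**Figure D4:**
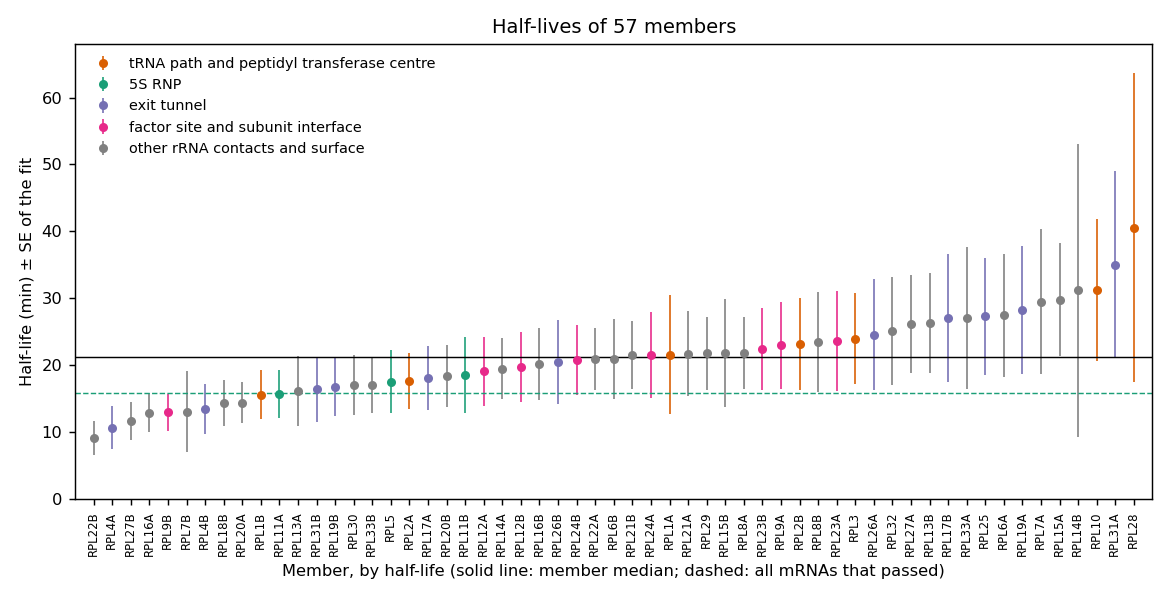
Half-life in min (y axis) of 57 of the 58 members in order of half-life (x axis), coloured by the place of the protein in the subunit, with bars for ± SE of the fit. The solid line is the member median of 21.2 min and the dashed line the median of 15.8 min over all mRNAs that passed; most bars overlap their neighbours.

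Proteins along the tRNA path and the peptidyl transferase centre are encoded by 7 members, whose median half-life was 23.2 min. RPL28 (YGL103W), whose protein lies near the exit site and is altered in cycloheximide-resistant strains, had the most irregular course of them. Its levels at the 10 times in order were 492, 465, 451, 348, 560.4, 383, 499, 234, 199.8 and 121 scaled FPKM. It was above its 0 min level at 10 and 20 min and was the only member that was lower at 45 than at 30 min, and the half-life of 40.5 ± 23.1 min carries an SE of more than 50% of its value. RPL10 had 3235, 3189, 3061, 2651, 3039, 2389, 2128, 921, 1599 and 755 scaled FPKM and fell below 50% of its 0 min level at 30 min. RPL3 (YOR063W), which touches the peptidyl transferase centre from the other side, had 1932, 1909, 1739.5, 1435, 1643, 1144, 1040.5, 484, 778 and 408 scaled FPKM and a half-life of 24.0 ± 6.78 min. RPL2A and RPL2B, whose protein sits beside the same centre, had half-lives of 17.6 ± 4.20 and 23.2 ± 6.85 min, and RPL1A and RPL1B 21.6 ± 8.85 and 15.6 ± 3.63 min.

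RPL5 and RPL11 carry the 5S rRNA into the particle and form the central protuberance with it. All 3 of their mRNAs were under the member median, with RPL5 (YPL131W) at 17.5 ± 4.70 min, RPL11A at 15.7 ± 3.60 min and RPL11B at 18.6 ± 5.70 min. RPL5 had 1327, 1245, 1094, 969, 1074, 762, 584, 153, 307 and 125 scaled FPKM over the 10 times and ended at the lowest share of its 0 min level of any family. RPL11A alone of the 3 lay more than its SE under the member median.

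Proteins that line the exit tunnel or ring its mouth are encoded by 11 members, with a median of 20.4 min and a wide range. RPL4A and RPL4B, for a protein that reaches into the tunnel, had 10.7 ± 3.18 and 13.5 ± 3.77 min. RPL4A had 211, 167, 129, 103, 117, 72.1, 66.1, 33.1, 48.6 and 31.3 scaled FPKM and had lost most of its level by 15 min. RPL25 (YOL127W), the docking site of the signal recognition particle and of nascent chain chaperones, had 2168, 2168, 1919, 1695, 1979, 1518, 1401, 522, 924 and 427 scaled FPKM and a half-life of 27.3 ± 8.78 min. RPL31A, for a small protein at the tunnel mouth, had 1279.5, 1285, 1148, 965, 1263, 992, 959, 412, 711 and 309 scaled FPKM and a half-life of 35.0 ± 13.9 min, above its B copy by 18.6 ± 14.7 min.

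The 8 members for proteins of the translation factor site and the subunit interface (RPL9, RPL12, RPL23 and RPL24) had a median half-life of 21.2 min, and 7 of them had half-lives of 19.1 to 23.6 min. RPL9B was the exception by the exponential fit, at 12.9 ± 2.77 min against 23.0 ± 6.51 min for RPL9A. The slopes over the whole course did not set these copies apart. They were -0.46 ± 0.07 log2 units per 10 min for RPL9B and -0.47 ± 0.06 for RPL9A. At 60 min RPL9B kept 17.6% and RPL9A 14.0% of the 0 min level. RPL12, at the base of the stalk that recruits elongation factors, had half-lives of 19.1 ± 5.14 and 19.7 ± 5.24 min for A and B.

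The 29 remaining members encode proteins that bind rRNA elsewhere or cover the surface, with a median of 21.5 min. Of the single-copy members here, RPL29, a very small protein that yeast can live without, had 387, 374, 345, 282, 291, 256, 210.1, 82.9, 139 and 46.6 scaled FPKM and a half-life of 21.8 ± 5.46 min. RPL30, which binds its own transcript and represses its splicing, had 1695, 1585, 1341, 1099.6, 1292, 925, 742, 223, 490.0 and 185 scaled FPKM and 17.0 ± 4.50 min. RPL32 had 1607, 1537, 1388, 1210.3, 1437, 1023, 995, 365, 705 and 256 scaled FPKM and 25.1 ± 8.06 min. In all 3, as in most members, 10 min stood above 8 min and 45 min above 30 min. By gene structure, the 37 members with an intron in the coding part had a median half-life of 20.9 min and the 21 without one 21.5 min, a difference that was not tested. By copy number, the 8 single-copy members had a median of 24.5 min, the A copies 21.7 min and the B copies 19.7 min.

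The copies of a pair were then compared with each other, and their ratio within a library does not depend on the scaling. The half-lives of A and B differed by more than 1.5 times in 11 of 25 pairs, or in 6 with a straight line through the logarithms, and the median ratio of the longer over the shorter was 1.39. For a single pair, RPL22, the difference was over 2 SE of the difference, at 11.8 ± 5.25 min. That SE takes the errors of A and B as independent, although scatter of a library enters both copies. It ignores the pairing of copies within a library, so this count does not tell how many pairs differ. The slope of log2(A/B) over time, a measure that cancels shifts shared by both copies, was over 2 SE from 0 in 16 pairs, rising in 8 and falling in 8. The count was 14 to 17 when any 1 library was left out and 17 without the 30 and 45 min libraries, with the same sign in 24 of 25. The slopes are given with their SE only, as a description. The share of other pairs of mRNAs over this limit was not computed, so the 16 cannot be set against a background.

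RPL27 and RPL22, whose sequences are printed, moved toward A. For RPL27, a surface protein, the A/B ratio was 1.63, 1.58, 1.81, 1.94, 2.19, 2.88, 4.33, 7.21, 7.32 and 6.01 in the 10 libraries in order. RPL27A (YHR010W) had 1125, 1042, 966, 842, 949.9, 715, 701, 292, 499 and 266 scaled FPKM, and RPL27B (YDR471W) had 688, 661, 534, 434, 433, 249, 162, 40.4, 68.2 and 44.2 scaled FPKM. The ratio at 3 min was near that at 0 min and every later ratio was higher. The half-lives were 26.2 ± 7.33 min for A and 11.6 ± 2.89 min for B, and the log2(A/B) slope was 2.43 ± 0.45 per 60 min. For RPL22, a nonessential protein that holds back splicing of the RPL22B transcript, the ratio was 3.74, 3.73, 4.19, 4.99, 5.80, 9.47, 13.2, 12.6, 13.3 and 10.1. RPL22A (YLR061W) had 661, 644, 522, 496, 449, 388, 378, 155, 219 and 121 scaled FPKM and RPL22B (YFL034C-A) had 177, 172, 124, 99.4, 77.3, 41, 28.6, 12.2, 16.5 and 12.0 scaled FPKM, with half-lives of 20.9 ± 4.58 and 9.11 ± 2.56 min. RPL22B lost ground to RPL22A in every library from 6 to 20 min, and the ratio stayed between 10.1 and 13.3 from 30 min on. Neither pair holds a near-identical stretch. Without the 30 and 45 min libraries the slopes were 2.0 ± 0.38 and 1.51 ± 0.67 per 60 min.

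RPL31 and RPL19 also moved toward A. The RPL31 ratio was 3.46, 4.09, 3.60, 3.37, 4.39, 4.58, 6.88, 14.0, 11.4 and 8.35, a slope of 1.83 ± 0.48 per 60 min. Most of the rise lay between 15 and 30 min, and without the 30 and 45 min libraries the slope was 1.32 ± 0.29. RPL31B had 369.5, 314, 318, 286, 288, 217, 139, 29.4, 62.2 and 37.0 scaled FPKM and a half-life of 16.4 ± 4.82 min, less than 50% of that of RPL31A. The RPL19 copies began at nearly equal levels and ended with A higher, with ratios of 0.934, 0.997, 1.06, 1.03, 1.11, 1.3, 1.45, 1.88, 1.64 and 1.67 and a slope of 0.94 ± 0.20. RPL19A had a half-life of 28.2 ± 9.59 min and RPL19B 16.7 ± 4.31 min. RPL33 (0.58 ± 0.19), RPL26 (0.53 ± 0.15) and RPL6 (0.37 ± 0.10) moved the same way by less, and RPL33 was no longer over 2 SE without the 30 and 45 min libraries (0.40 ± 0.22). RPL7 (1.58 ± 0.70) moved toward A on few fragments, its ratio jumping between 2.30 and 12.1, with half-lives of 29.5 ± 10.8 and 13.0 ± 6.08 min.

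In the other direction, RPL13 and RPL16 moved toward B. The RPL13 ratio was 0.444, 0.474, 0.413, 0.403, 0.450, 0.352, 0.296, 0.141, 0.158 and 0.206, a slope of -1.67 ± 0.39 per 60 min, and -1.20 ± 0.16 without the 30 and 45 min libraries. The ratio held near its start until 10 min and was lower in every later library. RPL13A had 496, 487, 377, 341, 427, 256, 203, 44.1, 84.3 and 45.3 scaled FPKM and RPL13B 1118, 1028, 913, 846, 949, 725, 684, 313, 535 and 220.4 scaled FPKM, with half-lives of 16.1 ± 5.23 and 26.3 ± 7.47 min. The RPL16 ratio was 0.663, 0.658, 0.565, 0.589, 0.567, 0.505, 0.393, 0.269, 0.320 and 0.282, a slope of -1.39 ± 0.24, and A was below B in all 10 libraries. The RPL16 protein contacts several rRNA domains, and its A copy was the fourth shortest-lived member. RPL16A had 634, 566, 437, 403, 453, 287, 194, 46.3, 101 and 37.6 scaled FPKM and RPL16B 956, 860.3, 774, 685, 799, 568, 494, 172, 314 and 133 scaled FPKM, with half-lives of 12.9 ± 2.96 and 20.2 ± 5.34 min. RPL17 (-0.78 ± 0.09) and RPL2 (-0.54 ± 0.07) also moved toward B, and the RPL17 ratios were 2.85, 2.42, 2.33, 2.56, 2.60, 2.31, 2.21, 1.84, 1.82 and 1.57, the last the lowest. RPL24 (-0.46 ± 0.12), RPL20 (-0.35 ± 0.08) and RPL11 (-0.37 ± 0.18) moved toward B by less. RPL14 (-1.0 ± 0.35) did so on low levels, and RPL14B, at 69.8, 103, 61.5, 58.3, 62.3, 44.5, 49.8, 15.2, 27.9 and 25.7 scaled FPKM, stood above its 0 min level at 3 min and had a half-life of 31.2 ± 21.9 min. RPL7, RPL11 and RPL14 are among the pairs with near-identical copies, so their ratio slopes are uncertain.

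**Figure D5:**
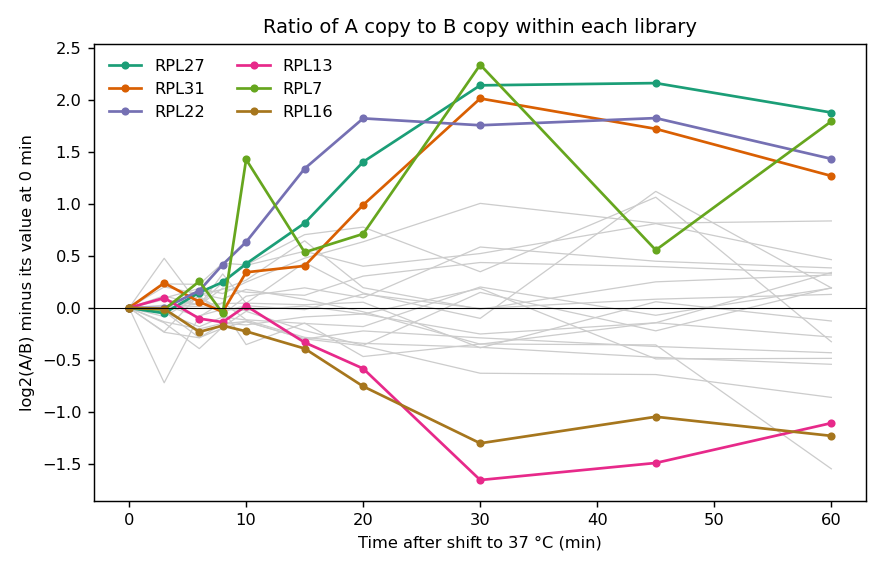
Change of log2(A/B) from its value at 0 min (y axis) against minutes after the shift (x axis) for 24 of the 25 paralog pairs, 1 library per time point. The 6 pairs with the steepest slopes over 2 SE are coloured and the others grey; RPL27, RPL31 and RPL22 rise, RPL13 and RPL16 fall, and RPL7 jumps from library to library.

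The pairs with the smallest ratio of half-lives were RPL21, RPL24 and RPL12. RPL21A and RPL21B had half-lives of 21.7 ± 6.37 and 21.5 ± 5.09 min, an A minus B difference of 0.198 ± 8.16 min, although A stood 2.67 times above B at 0 min. RPL12A and RPL12B differed by -0.618 ± 7.34 min and had A/B ratios of 0.884 to 1.33 over the libraries. Without the 30 and 45 min libraries the ratio slopes of RPL12 (0.35 ± 0.07) and RPL21 (-0.15 ± 0.04 per 60 min) were over 2 SE, which they were not with all 10 libraries (0.13 ± 0.16 and -0.16 ± 0.14). RPL24A and RPL24B differed by 0.728 ± 8.35 min while their ratio slope was over 2 SE, so an equal half-life by the 1-parameter fit did not mean an equal course. These intervals leave room for differences of more than 10 min within a pair. The more abundant copy was the longer-lived one in 15 of 25 pairs, and the A copy in 15. RPL15, the pair with the most unequal levels, had a ratio slope of 0.23 ± 0.24 per 60 min, within 2 SE of 0.

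Some of these proteins have a dedicated chaperone that binds them before they join the particle, and 5 such chaperones were listed with the members. Their mRNAs were low, with a median of 60.3 FPKM at 0 min, and had a median half-life of 9.34 min. All 5 fell over the course and over 0 to 10 min in limma, against 57.7% and 59.4% of all mRNAs. RPL3 had a half-life of 24.0 ± 6.78 min, against 9.34 ± 1.68 min for RRB1, which escorts Rpl3. RPL10 had 31.2 ± 10.6 min, against 10.1 ± 2.58 min for SQT1, which escorts Rpl10. RPL5 had 17.5 ± 4.70 min, against 7.26 ± 1.88 min for SYO1, which carries Rpl5 and Rpl11 together into the nucleus. RPL4A had 10.7 ± 3.18 min by the exponential fit and 23.3 min by the straight line, against 10.7 ± 2.01 min by the exponential fit for ACL4, the partner of Rpl4. RPL23A and RPL23B had 23.6 ± 7.45 and 22.4 ± 6.17 min, against 7.82 ± 1.48 min for BCP1, the partner of Rpl23. The list was drawn up with earlier results of these data known, and these differences were not tested.

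Of the regulators that act at ribosomal protein promoters, 2 of 6 fell over the course in limma (RAP1 and HMO1, against 57.7% of all mRNAs tested). FHL1, IFH1, SFP1 and HMO1, 4 of 6, fell over 0 to 10 min (against 59.4%) and slowed after 10 min (against 42.8%), and CRF1 passed in none of the 3 tests. The median slope over the course was -0.46 log2 units per 10 min for the members, against -0.14 for these 6.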

How the data were processed

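The authors shifted the labelled rpb1-1/caf1 cells to 37 °C, extracted RNA, added ERCC spike-in RNA, sequenced paired 100-base reads and aligned them with Bowtie 0.12.7 to SacCer2. The deposited values are FPKM per gene, which the authors computed with Cufflinks 1.3.0 and left without spike-in scaling. How reads matching more than 1 gene were treated is not given in the sources used here.

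The FPKM of each library were then scaled by its ERCC sum, taking 0 min as 1. A half-life came from a least-squares fit of one rate to levels relative to 0 min, with the study's limits, applied to 5285 named mRNAs of the RefSeq annotation of R64. Their SE takes noise in proportion to the level. Slopes were tested with limma 3.58.1 (R 4.3.3) on log2(scaled FPKM + 1), with time as a continuous term, over 5176 mRNAs with a mean of at least 1, at Benjamini-Hochberg adjusted p under 0.05. A second fit had 1 bend at 10 min. The half-life fit and the straight slope over all libraries were checked on simulated data, with noise drawn separately for each value. The fit with a bend was not checked in this way. With 1 library per time point, SE and p measure the scatter of libraries around a line, which may be technical. Expressed mRNAs had at least 10 FPKM at 0 min. Log2(A/B) slopes used FPKM within a library and no pseudocount. The fits ran in numpy 2.4.6 and pandas 2.3.3 under Python 3.11.15.

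The number of fragments was estimated from low FPKM of genes with at least 900 coding bases, of which 94.1% to 98.0% lay at most 0.1 from a whole number. The resulting totals (2260000 to 4912000 per library) limit RPL7B, RPL29 and RPL22B most, the 3 with the fewest fragments at 30 min.

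Named with values are the single-copy members, the 3 highest and lowest levels, the 3 shortest and longest half-lives, the pair with a level ratio over 4 that is reported, the 3 largest and smallest half-life ratios, pairs with a ratio slope over 2 SE, and members called otherwise than most in a test. Alternatives were other scalings, pseudocounts, filters, fits and a bend at 15 min, and leaving out each library. The members and lists were chosen with earlier results of these data known, and the fit without the 30 and 45 min libraries was added after the data were seen. The values of 1 member and of its pair are counted but not reported here.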

Additional observations from a re-analysis of the deposited data

How the results depend on the processing

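Libraries could not be paired, because no time had a second library and a single strain was used. Copies were paired within a library for the log2(A/B) slopes, but not for the half-life differences. The scaling moved levels most. With the same total FPKM per library, the median half-life was 35.8 min and the median level at 60 min 28%, and in FPKM as deposited the median half-life was 29.2 min. Leaving out 1 library after 0 min gave a median half-life of 19.6 to 23.8 min. A straight line through the logarithms left 6 pairs with half-lives over 1.5 times apart, and leaving out 1 library after 0 min 9 to 13. Members that fell over 0 to 10 min numbered 37 with the bend at 15 min (64.4% of all mRNAs), 22 without the 30 and 45 min libraries (59.8%), and 1 to 16 when 1 library was left out (12.1% to 67.9%). Members with a slope changed in either direction are given beside the share of all mRNAs (45% with all libraries). They numbered 4 with a pseudocount of 10 (52.9%) and 4 with the bend at 15 min (47.3%). In limma 0 passed with a pseudocount of 0.1 (41.2%) or with no filter on low values (41.3%), with 2 at an unadjusted p under 0.05 in each. With the same total (37%) or as deposited (42.1%) 1 passed, and 0 to 4 when 1 library was left out (1.06% to 59.6%). Of 308 recomputed half-lives of the 22 single members named, 265 stayed within 1 SE and 43 moved. With the same total 22 of the 22 moved, in FPKM as deposited 19 and with a straight line through the logarithms 2. When 1 library was left out 0 moved. The causes of these changes were not tested. RPL7B at 30 min rests on the fewest fragments. The SE of a half-life difference within a pair was 4.93 to 22.4 min, with the errors of the copies taken as independent. With 1 library per time point, this limits what the half-lives of copies can show.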

Other observations

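Other ribosomal protein mRNAs fell over the course as well. Of 56 RPS mRNAs of the small subunit, all 56 fell over the course in limma (against 57.7% of all mRNAs tested), as did all 58 members. The median slope was -0.46 log2 units per 10 min for the members against -0.43 for the RPS mRNAs, and the median half-life 21.2 min for the members against 23.8 min for the RPS mRNAs. At 20 min the median member stood at 52.2% of its start and the median RPS mRNA at 55.9%. At 60 min the median member stood at 14.7% and the median RPS mRNA at 16.3%. Of the 18 genes RPL34 to RPL43, 16 were tested and 15 fell, with a median half-life of 25.1 min over the 15 that passed the fit. The 5 acidic stalk proteins all fell and had a median of 25.9 min. Over 0 to 10 min, 6 of 56 RPS mRNAs fell, against 59.4% of all mRNAs. The differences between these lists were not tested.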
